A study of Rattus norvegicus with 9 samples.

Results

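The miR-99/100 family was examined in small RNA sequencing libraries of rat left ventricle. Its members were every sequence filed under the rat entries mir-99a, mir-99b and mir-100, on the mature strand, the * strand (the opposite arm of the hairpin) or the precursor. The members were chosen by name, but the family itself was put forward with earlier results of these data known, so its levels are a description and its tests are no independent support. These were 867 of 46358 annotated sequences and 106909 reads: 209 sequences were filed under mir-99a, 429 under mir-99b and 229 under mir-100. All libraries came from untreated male Sprague-Dawley rats 8 months old, and the free wall of each left ventricle was cut into epicardium, midmyocardium and endocardium. Each of 3 hearts, labelled 6, 7 and 8, gave 1 library of each layer, so that every layer and every heart has 3 libraries. Each layer is a slice of whole tissue that holds several cell types, and in such tissue fewer cells of a type and less RNA per cell cannot be told apart.

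A miRNA is cut from a hairpin transcript, first by Drosha in the nucleus and then by Dicer in the cytoplasm, and 1 arm is usually retained in the Argonaute complex. Targets are recognised mainly through the seed, bases 2 to 8 counting the 5′ base as 1, so that miRNAs with a common seed are grouped as a family. The 3′ end often varies by a few bases through trimming or through addition of A or T (U in RNA), and such forms are called isomiRs. The family is known in vertebrates for its link to mTOR signalling, and each member is encoded near a let-7 and a miR-125 gene, both of which are families with roles in differentiation.

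The mature sequences of the deposited entries are shown first, since the members differ in few bases. Capitals mark the seed.

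miR-99a: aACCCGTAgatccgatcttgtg
miR-99b: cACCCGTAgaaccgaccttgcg
miR-100: aACCCGTAgatccgaacttgtg
miR-99a*: cAAGCTCGtttctatgggtctg
miR-99b*: cAAGCTCGtgtctgtgggtccg

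All 3 mature sequences are 22 nts long and have the seed ACCCGTA. Between miR-100 and miR-99a the only difference is A16T, where positions count from 1 at the mature 5′ end and the base of the first-named miRNA is written first. miR-99b differed from miR-99a at 4 positions (A1C, T11A, T16C and T21C) and from miR-100 at 4 (A1C, T11A, A16C and T21C), none of them in the seed. The * strands of miR-99a and miR-99b also have a seed in common, AAGCTCG. Among the 724 mature sequences of the RefSeq table (GRCr8), the seed of the mature strands was held by 2, rno-miR-99b-5p and rno-miR-100-5p (rno-miR-99a-5p was not matched there and is outside this count), and the seed of the * strands by 2, rno-miR-99a-3p and rno-miR-99b-3p. rno-miR-100-3p has the seed AAGCUUG.

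The hairpins are shown to place the arms that were read, with the mature arm and the opposite arm in capitals (RefSeq, GRCr8, plus strand for each).

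Mir99a: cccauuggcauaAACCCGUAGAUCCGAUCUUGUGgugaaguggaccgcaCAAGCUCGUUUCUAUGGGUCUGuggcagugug
Mir99b: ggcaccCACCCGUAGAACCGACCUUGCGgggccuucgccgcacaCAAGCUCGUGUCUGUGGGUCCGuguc
Mir100: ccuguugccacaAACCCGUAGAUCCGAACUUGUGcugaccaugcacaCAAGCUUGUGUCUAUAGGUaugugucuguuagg

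In GRCr8 Mir99a lies at chr11:29687392-29687472, Mir99b at chr1:67350064-67350133 and Mir100 at chr8:50798295-50798374. On chromosome 1 the hairpin of let-7e starts 96 nts and that of miR-125a 542 nts after the end of Mir99b. On chromosome 11 let-7c-1 starts 640 nts after Mir99a, and the mature sequence of miR-125b-2 follows at 45116 nts. On chromosome 8 let-7a-2 starts 6829 nts after Mir100 and miR-125b-1 follows at 51662 nts.

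The annotated reads per library ran from 283991 in midmyocardium of heart 6 to 1428025 in endocardium of heart 7, and the family reads from 1028 to 27833. All 6 cardiomyocyte miRNAs on the marker list (miR-1, miR-133a, miR-133b, miR-208, miR-208b and miR-499) reached 10 reads summed over the 9 libraries. So did all those listed for endothelium, smooth muscle, fibroblasts, red cells and leukocytes. The summed cardiomyocyte level ran from 94126 to 108144 RPM in heart 6 and from 54340.4 to 142826 in hearts 7 and 8, where RPM is the deposited unit, reads scaled to the annotated total of the library. For the sums of the other 5 lists, too, the range in heart 6 overlapped that in hearts 7 and 8, but the red cell sum was mostly miR-486 (92952 to 228287 RPM). Among the single markers miR-144, a red cell miRNA, was at 40.8 to 46.8 RPM in heart 6 and at 82.6 to 207 in hearts 7 and 8, so that heart 6 was below all others as it was for the family. miR-451, listed for the same cells, was at 487 to 732 RPM in heart 6 and overlapped the others (377 to 960.3). The part of these cell types in the results that follow was not tested.

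miR-99b was the most abundant member and held 64.6% of the family reads on its mature strand, against 23.7% for miR-100 and 8.09% for miR-99a. A further 317 reads (0.297%) were filed jointly under mir-99a and mir-100. By mean level miR-99b had rank 20 of 2695 features (a feature is an entry split into mature strand, * strand and precursor), miR-100 rank 38 and miR-99a rank 66. The rank of miR-99b moved between 13 and 55 over the libraries. Of the family reads, 81.1% had no mismatch to the reference, and 137 sequences with at least 10 reads held 98.5% of the reads.

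In epicardium of hearts 6, 7 and 8 miR-99b was at 2462, 14738 and 20256 RPM. In midmyocardium it was at 1972, 7655 and 3572 RPM, and in endocardium at 1604, 10365 and 13794, in the same order of hearts. Each library of heart 6 was thus below all 6 libraries of hearts 7 and 8, and midmyocardium of heart 8 was the lowest of those 6. The highest library was 12.6-fold above the lowest.

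miR-100 was at 980.2, 7178 and 6970.5 RPM in epicardium of hearts 6, 7 and 8, at 722, 2718 and 1549 in midmyocardium, and at 683, 2641 and 5599 in endocardium. Heart 6 was again below every library of the other hearts, and the range was 10.5-fold. miR-99a was at 629, 1969.9 and 1877 RPM in epicardium, at 549, 1053 and 714 in midmyocardium and at 432, 926 and 1915 in endocardium. Its libraries from heart 6 also lay below the rest, over a smaller range of 4.57-fold. Midmyocardium of heart 8 stood next to heart 6 for all 3 members.

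**Figure D1:**
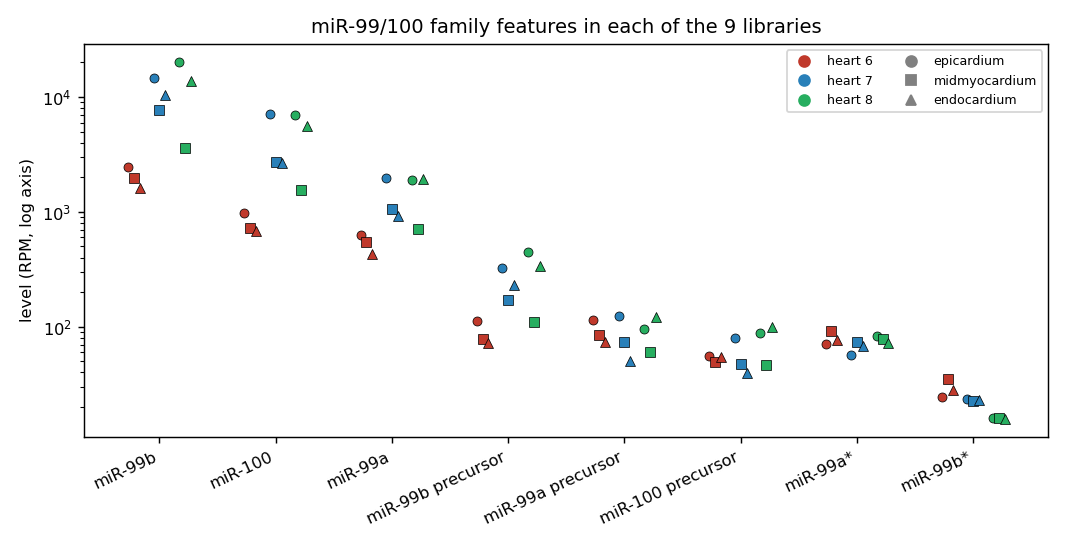
Level of each family feature (RPM, log axis) in each of the 9 libraries, coloured by heart and with a symbol for each layer. The mature strands of miR-99b, miR-100 and miR-99a in heart 6 lie below all libraries of hearts 7 and 8, while miR-99a* lies between 57.1 and 91.6 RPM in all of them.

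The * strands had other profiles than their mature strands. miR-99a* was at 71.3, 57.1 and 82.6 RPM in epicardium of hearts 6, 7 and 8, at 91.6, 74.3 and 78.8 in midmyocardium and at 77.3, 68.6 and 72.4 in endocardium, a range of 1.6-fold over 44 to 98 reads in all but midmyocardium of heart 6, which had 26. miR-99b* was at 24.5, 23.4 and 16.1 RPM in epicardium, 35.2, 22.6 and 16.1 in midmyocardium and 28.1, 23.1 and 15.8 in endocardium. Here heart 6 was above every library of the other hearts, on 10 to 33 reads per library. For miR-100* there were 21 reads over the 9 libraries, and it reached 10 reads in none. The * share of both strands of miR-99a in hearts 6, 7 and 8 was 12.8% ± 2.58 (SD, n = 3), 5.18% ± 2.15 and 5.81% ± 3.42, and that of miR-99b was 1.49% ± 0.436, 0.225% ± 0.0679 and 0.215% ± 0.205. Neither share passed the test between hearts (exact permutation of heart labels within layers, two-sided, p = 0.0833 and 0.111, adjusted p = 0.175 for each over 30 shares). With 36 arrangements this test gives no p below 0.0278, so a share could pass only if many reached that p together.

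Reads filed under the precursors were mostly the mature strand cut short: 90.2% of those of miR-99a, 92.4% of miR-99b and 86.9% of miR-100 lay inside the mature sequence. The miR-99b precursor ran from 71.7 RPM in endocardium of heart 6 to 449 in epicardium of heart 8. The miR-99a precursor ran from 50.4 to 123 RPM and that of miR-100 from 39.2 to 98.7, with heart 6 inside the range of the other hearts for both.

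Across hearts, a limma F test with layer as covariate called 0 of 573 features (0%) at an adjusted p below 0.05. At an unadjusted p below 0.05 there were 61 features. edgeR's quasi-likelihood test on the recovered reads called 16 (2.79%), among them miR-99b, miR-100 and the miR-99b precursor, and DESeq2 24 (4.19%), among them these and miR-99a. On the log2(RPM + 1) scale, the mean of miR-99b was higher by 2.41 in heart 7 and by 2.33 in heart 8 than in heart 6 (limma, adjusted p = 0.117). By p it had rank 6 among the 573 features. The corresponding differences were 2.24 and 2.32 for miR-100 (limma, adjusted p = 0.117), 1.23 and 1.37 for miR-99a (adjusted p = 0.290) and 1.44 and 1.57 for the miR-99b precursor (adjusted p = 0.223). Hearts 7 and 8 differed by 0.14 or less for the 4 features. The call depended on the test. With edgeR the adjusted p was 0.0115 for miR-99b, 0.011 for miR-100, 0.0513 for miR-99a and 0.0302 for the miR-99b precursor. With DESeq2 it was 6.37e-07, 2.45e-07, 0.00221 and 0.000774. Over all fits tried the adjusted p ran from 6.37e-07 to 0.613 for miR-99b, from 2.45e-07 to 0.533 for miR-100, from 0.00221 to 0.708 for miR-99a and from 0.000774 to 0.664 for the miR-99b precursor. Without midmyocardium of heart 8, limma called 7 of 558 features (1.25%), among them miR-99b (largest minus smallest heart mean 3.08, adjusted p = 0.0142) and miR-100 (2.99, adjusted p = 0.0346), and not miR-99a (1.84, adjusted p = 0.152).

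Of the 573 features, 28 (4.89%) had every library of heart 6 below every library of hearts 7 and 8, and these included the mature strands of all 3 members. For 30 features (5.24%) heart 6 was above all others, miR-99b* among them. The animal, its dissection and its RNA cannot be told apart here. Among 202 features with a mean of at least 100 RPM, the span from lowest to highest library was 3.66 on the log2 scale for miR-99b (rank 5), 3.39 for miR-100 (rank 8) and 2.19 for miR-99a (rank 18), against a median of 1.09 over those features.

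Between layers, endocardium against epicardium is the comparison that the paper tabulated. By quantitative PCR in additional hearts the paper also reported a significant transmural gradient for miR-99b, with miR-100 among the reference miRNAs. Those animals and that assay are not part of the libraries compared here. The paper's text does not state in which layer miR-99b was higher by that assay, so the directions were not compared. miR-99b had a mean of 8587 ± 6286 RPM (SD, n = 3) in endocardium and 12485 ± 9108 in epicardium, a log2 difference of -0.56 (SE 0.99, limma, adjusted p = 0.997). For miR-100 the means were 2974 ± 2475 and 5043 ± 3519.8 RPM (log2 difference -0.76, SE 0.95, adjusted p = 0.997) and for miR-99a 1091 ± 755 and 1492 ± 749 (-0.53, SE 0.64, adjusted p = 0.997). In this fit, which has no heart block, the difference was smaller than its standard error for each member. limma called 0 of 557 features (0%), with 15 at an unadjusted p below 0.05. edgeR and DESeq2 called 0 as well, and Baggerley's test on proportions 1, which was no family feature.

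In endocardium miR-99b was lower than in epicardium of the same heart by 0.62, 0.51 and 0.55 on the log2 scale in hearts 6, 7 and 8. For miR-100 the endocardium minus epicardium difference was -0.52, -1.44 and -0.32, and for miR-99a it was -0.54, -1.09 and 0.03. Of the features tested, 12.4% were lower in endocardium in every heart. With the heart as a block the SE for miR-99b was 0.31 in place of 0.99. It was 0.37 for miR-100 and 0.36 for miR-99a, so each fitted difference was then larger than its SE. The unadjusted p was 0.124 for miR-99b, 0.089 for miR-100 and 0.195 for miR-99a, and the adjusted p again 0.997 for each (limma with heart block).

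Midmyocardium was below epicardium in every heart for the 3 members. The log2 differences in hearts 6, 7 and 8 were -0.32, -0.94 and -2.50 for miR-99b, -0.44, -1.40 and -2.17 for miR-100, and -0.20, -0.90 and -1.39 for miR-99a. Of the features tested in this comparison, 14.4% were lower in every heart. The mean level was 4399.7 ± 2931 RPM in midmyocardium for miR-99b, 1663 ± 1003 for miR-100 and 772 ± 257 for miR-99a. The fitted differences from epicardium were -1.26 (SE 0.85), -1.34 (SE 0.85) and -0.83 (SE 0.51), each with an adjusted p of 0.966 (limma). With the heart as a block the SE was 0.49, 0.41 and 0.34. The unadjusted p was then 0.049, 0.022 and 0.059, and the adjusted p 0.897 for each (limma with heart block). In that fit 18 of 547 features had an unadjusted p below 0.05. limma called 0 of 547 features (0%), 14 having an unadjusted p below 0.05, and edgeR 0 and DESeq2 1, which was no family feature. Midmyocardium against endocardium gave -0.70 (SE 0.88) for miR-99b, -0.58 (SE 0.82) for miR-100 and -0.30 (SE 0.56) for miR-99a, with adjusted p of 0.879 or above (limma), and 0 of 556 features (0%) were called, with 25 at an unadjusted p below 0.05 and 0 by edgeR or DESeq2. In this comparison heart 8 was at -1.95 for miR-99b, against -0.44 in heart 7 and 0.30 in heart 6. The layers overlapped for each member in all 3 comparisons. Of all features, the values in endocardium lay wholly above those in epicardium for 3.05% and wholly below for 3.77%. For midmyocardium these shares were 4.39% and 5.3% against epicardium, and 5.94% and 5.58% against endocardium. The comparisons share libraries, so their differences are not independent.

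IsomiRs of each member are shown next because the single sequences behaved unlike one another. The 3′ end forms with the canonical 5′ end are given, with bases that do not match the hairpin in capitals.

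miR-99a, 2 nts shorter: aacccgtagatccgatcttg
miR-99a, 1 nt shorter: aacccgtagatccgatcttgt
miR-99a, exact mature: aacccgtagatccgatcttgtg
miR-99a, plus A: aacccgtagatccgatcttgtgA
miR-99b, 2 nts shorter: cacccgtagaaccgaccttg
miR-99b, 1 nt shorter: cacccgtagaaccgaccttgc
miR-99b, exact mature: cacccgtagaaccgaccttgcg
miR-99b, plus A: cacccgtagaaccgaccttgcgA
miR-99b, plus T: cacccgtagaaccgaccttgcgT
miR-100, 2 nts shorter: aacccgtagatccgaacttg
miR-100, 1 nt shorter: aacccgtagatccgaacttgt
miR-100, exact mature: aacccgtagatccgaacttgtg
miR-100, plus A: aacccgtagatccgaacttgtgA
miR-100, plus T: aacccgtagatccgaacttgtgT

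The exact mature sequence of miR-99a was at 382, 423 and 508 RPM in epicardium of hearts 6, 7 and 8, at 335, 405 and 352 in midmyocardium and at 309, 352 and 510.4 in endocardium. It varied 1.65-fold, and heart 6 overlapped the other hearts. The form 1 nt shorter was at 87.3, 1064 and 966 RPM in epicardium, at 63.4, 449 and 183 in midmyocardium and at 30.9, 359.9 and 984 in endocardium, a range of 34.4-fold with heart 6 below all others. These forms differ by a single G at the 3′ end. The form 2 nts shorter was level again, from 64.7 to 154 RPM, and plus A was at 0 to 14.9 RPM in heart 6 and 26.6 to 118 in the others.

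For miR-100 the exact mature sequence was at 458, 3144 and 2665 RPM in epicardium, 313, 1328 and 741 in midmyocardium and 267, 1098 and 2326 in endocardium, so that here the canonical form itself was low in heart 6. The form 2 nts shorter ran only from 141 to 371 RPM, with heart 6 (155 to 199) inside that range. miR-100 plus A was at 49.2 to 63.9 RPM in heart 6 and 226 to 1221 in hearts 7 and 8, and plus T at 2.81 to 5.32 and 11.4 to 156. For both miR-99a and miR-100 the 2-nt shorter form thus overlapped between heart 6 and the other hearts.

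For miR-99b, in contrast, the form 2 nts shorter was at 71.7 to 147 RPM in heart 6 and at 244 to 1252 in the other hearts, with no overlap. Its exact mature sequence ran from 499 to 6778 RPM and the form 1 nt shorter, its most abundant, from 644 to 7969.8, both lowest in heart 6. Addition of T and of A had different profiles. Plus T was at 38.3, 1087.5 and 1459 RPM in epicardium of hearts 6, 7 and 8, at 24.6, 551 and 213 in midmyocardium and at 22.5, 820.0 and 1040.5 in endocardium, a range of 64.9-fold with no overlap. Plus A was at 265, 767 and 1356 RPM in epicardium, 229, 339 and 226 in midmyocardium and 179.9, 595 and 719.6 in endocardium, a range of 7.53-fold with heart 6 overlapping heart 8. The hairpin has G after the mature sequence of miR-99b, so neither added base was templated (G23T and G23A, hairpin base first).

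**Figure D2:**
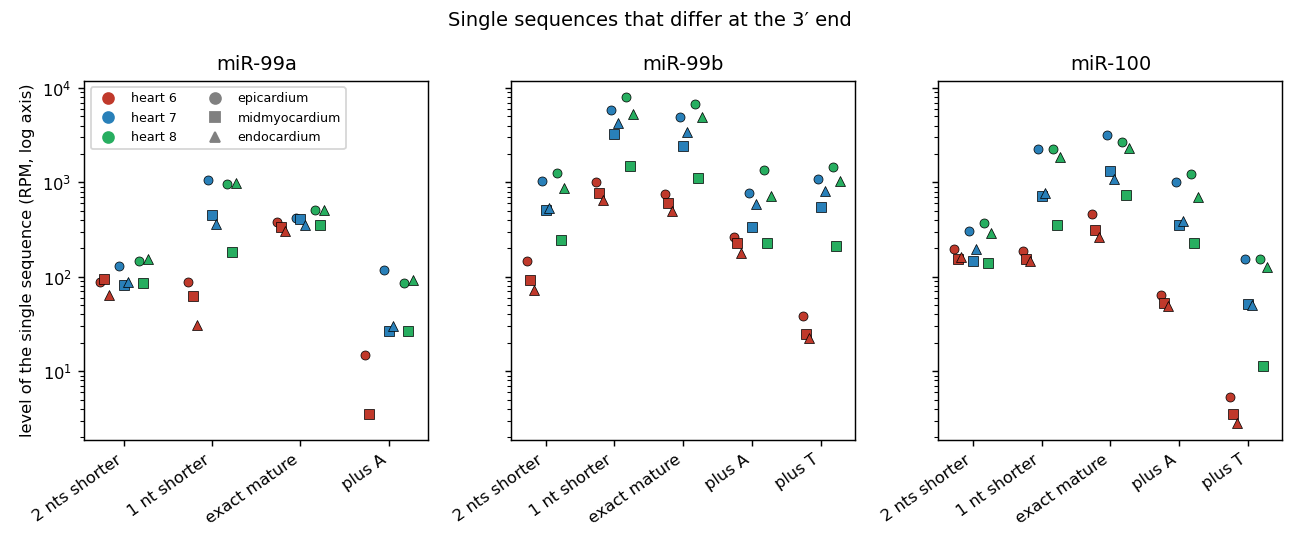
Level of single sequences (RPM, log axis) that differ at the 3′ end, for miR-99a, miR-99b and miR-100, in each of the 9 libraries, coloured by heart and with a symbol for each layer. The exact mature form of miR-99a varies 1.65-fold and its 1-nt shorter form 34.4-fold. miR-99a plus A had 0 reads in endocardium of heart 6 and has no point there.

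Single sequences were tested where a layer mean reached 100 RPM, which 577 did, and the limma F test over hearts called 34 (5.89%). In 54 of the 577 (9.36%) every library of heart 6 was below every library of the others. The family had 17 of the tested sequences. Only 8 of these had a mean of 100 RPM or more in heart 6 itself, of which 5 were called: the exact mature, 1-nt shorter and 2-nt shorter forms of miR-99b and the exact mature and 1-nt shorter forms of miR-100. The other 9 met the minimum with hearts 7 and 8, so a form that is low in heart 6 could enter through the hearts where it is high, and no count over them is given. These sequences overlap one another and belong to 3 hairpins. Forms of this latter kind include miR-99b plus T, with hearts 7 and 8 higher than heart 6 by 4.78 and 4.58 on the log2 scale. miR-100 plus T was higher by 3.98 and 3.72, miR-100 plus A by 3.22 and 3.38, and the miR-99a form 1 nt shorter was higher by 3.30 and 3.31. For the forms just named only the differences are given, since they entered in this way. Among the 8 sequences with a mean of 100 RPM or more in heart 6, miR-99b plus A did not pass the F test (adjusted p = 0.153). Nor did the 2-nt shorter form of miR-100 (0.639) or the exact mature sequence of miR-99a (0.786). The count of calls over all sequences depended on single libraries of every heart. Without epicardium of heart 6 it was 0 of 583, of which 73 had an unadjusted p below 0.05, and without endocardium of heart 6 it was 7. Without epicardium of heart 8 it was 8, without epicardium of heart 7 it was 13, and without midmyocardium of heart 7 it was 21. Between endocardium and epicardium 0 of 562 sequences (0%) were called by limma, with 8 at an unadjusted p below 0.05, and no other tool was run on single sequences.

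The isomiR make-up of each member was also expressed as a share of its mature-strand reads, which does not depend on the library total. For miR-99a the exact mature form varied less (309 to 510 RPM) than the mature strand (432 to 1970 RPM). Its share and the level of miR-99a are therefore not separate observations. The exact mature share of miR-99a was 59.1% (Wilson 95% interval 55.2 to 63.0) in epicardium of heart 6, 57.2% (49.6 to 64.5) in midmyocardium and 70.3% (65.0 to 75.1) in endocardium. In heart 7 it was 20.5%, 37.0% and 35.5% and in heart 8 26.5%, 48.1% and 26.0%, in the order epicardium, midmyocardium, endocardium. All 3 libraries of heart 6 were above the rest, and the intervals, which cover counting error only, overlapped just between midmyocardium of hearts 6 and 8. The share 1 nt shorter in hearts 6, 7 and 8 was 10.5% ± 3.26, 43.0% ± 7.87 and 41.9% ± 14.5 (SD, n = 3). The exact mature share of miR-99b stayed between 31.0% and 36.1% and that of miR-100 between 38.2% and 48.9% in all libraries.

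Of the miR-99b reads in hearts 6, 7 and 8, plus T made up 1.40% ± 0.153, 7.50% ± 0.371 and 6.90% ± 0.835, while plus A made up 11.2% ± 0.421, 5.12% ± 0.664 and 6.08% ± 0.769. Every library of heart 6 was thus below the others for added T and above them for added A. miR-100 plus A made up 7.01% ± 0.434, 14.0% ± 0.978 and 14.9% ± 2.48 of miR-100 reads in hearts 6, 7 and 8, so that heart 6 had the smaller share of added A here and the larger one on miR-99b. The miR-100 form 2 nts shorter made up 21.7% ± 1.59, 5.73% ± 1.61 and 6.52% ± 2.21 in these hearts.

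**Figure D3:**
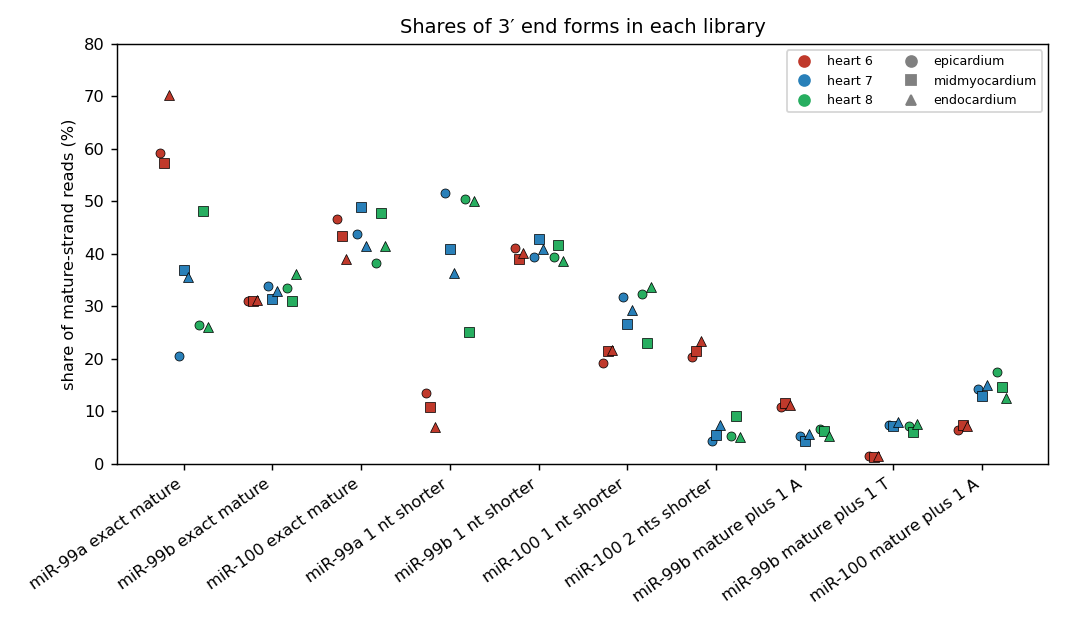
Share (%) of the mature-strand reads of each member held by the forms named, in each of the 9 libraries, coloured by heart and with a symbol for each layer. Exact mature miR-99a is at 57.2% or above in heart 6 and at 48.1% or below elsewhere, and miR-99b plus T is at 1.56% or below in heart 6 and at 5.96% or above elsewhere.

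Of 30 such shares, 0 passed an adjusted p of 0.05 between hearts (exact permutation of heart labels within layers, two-sided), the smallest adjusted p being 0.175. A share could pass only if many reached the smallest possible p together, so this count cannot show that the shares are alike. At 0.0278, the smallest p that the 36 arrangements can give, there were 3: miR-99b plus T, and the reads shorter at the 3′ end of miR-99b (47.2% ± 1.32, 50.6% ± 2.10 and 49.3% ± 2.11 in hearts 6, 7 and 8) and of miR-100 (45.7% ± 3.95, 36.2% ± 2.70 and 37.7% ± 3.62). Between endocardium and epicardium the smallest p was 0.3 (exact permutation of 3 libraries against 3, two-sided), where 0.1 is the smallest possible.

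A few sequences of low level ran against the rest. The miR-99a fragment that lacks the first 4 nts was filed under the precursor and is shown because it was highest in heart 6.

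miR-99a, 4 nts missing at the 5′ end: cgtagatccgatcttgtg

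It was at 36.2, 9.08 and 6.44 RPM in epicardium of hearts 6, 7 and 8, at 42.3, 10.6 and 10.45 in midmyocardium and at 22.5, 7.00 and 10.5 in endocardium, with no overlap between heart 6 and the others. In heart 6 this rests on 34, 12 and 16 reads. Of the miR-99a precursor reads, 48.6% lacked 4 or more bases of the 5′ end, against 5.90% for miR-99b and 23.4% for miR-100. Such a fragment does not carry the seed at bases 2 to 8.

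Since miR-99a and miR-100 differ in 1 base, the assignment of reads between them was examined. All 25342 mature-strand reads of miR-100 and 69055 of 69056 of miR-99b were nearest to their own hairpin. Of those filed under mir-99a 96.5% were, and the 317 jointly filed reads were equally near to both. The deposited names already file such ties jointly. The check thus restates the deposited assignment and cannot show reads misnamed through a sequencing error. The main sequence among them is shown with the base that departs from the miR-99a hairpin in capitals (T16A).

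filed under mir-99a and mir-100: aacccgtagatccgaActtgtgg

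It is a 1-base mismatch of miR-99a with a templated G, or equally miR-100 with an untemplated G, and its level ran from 7.03 to 81.8 RPM. Leaving the tied reads out moved the share of miR-99a among family reads from 13.0% to 12.7% (mean over 9 libraries).

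The members varied together. Over the 9 libraries Pearson's r of log2(RPM + 1) was 0.986 between miR-99a and miR-100, 0.981 between miR-99b and miR-100 and 0.957 between miR-99a and miR-99b. In hearts 7 and 8 alone (6 libraries) r was 0.987, 0.934 and 0.890. These values are descriptions, and the 9 points share 3 hearts. Among 201 other features with a mean of at least 100 RPM, the 3 most like miR-99a were miR-100 (r = 0.986), the miR-99b precursor (0.965) and the miR-22 precursor (0.959). Those most like miR-99b were its precursor (0.985), miR-100 (0.981) and the miR-125a precursor (0.963). Since 92.4% of the miR-99b precursor reads lay inside the mature sequence, that feature is not a separate miRNA from miR-99b. Those most like miR-100 were miR-99a (0.986), the miR-22 precursor (0.981) and miR-99b (0.981).

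The miRNAs encoded beside the family differed in profile. miR-125a, whose hairpin lies 542 nts from Mir99b, was at 4998, 21532 and 12667 RPM in epicardium of hearts 6, 7 and 8, at 5060.0, 13506 and 9047 in midmyocardium and at 6315, 11926 and 17337 in endocardium. It was lowest in heart 6 without overlap, as the family was. Its r with miR-99b was 0.897 over 9 libraries and 0.669 in hearts 7 and 8 alone. Its heart means were higher by 1.48 and 1.21 on the log2 scale in hearts 7 and 8 than in heart 6 (limma, adjusted p = 0.223, and 0.0212 by edgeR). miR-125b ran from 3416 to 9662 RPM, with r between 0.786 and 0.910 to the members over 9 libraries. In hearts 7 and 8 alone its r to them lay between 0.555 and 0.857.

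let-7e, whose hairpin lies between Mir99b and Mir125a, was at 823, 536 and 444 RPM in epicardium of hearts 6, 7 and 8, at 630.3, 607 and 607 in midmyocardium and at 765, 686 and 596 in endocardium. It was highest in epicardium of heart 6, where miR-99b was low, and the range was 1.85-fold. let-7a ran from 9093 to 15201 RPM and let-7c from 4523 to 8341. For both, heart 6 was above every library of the other hearts. The r of let-7a, let-7c and let-7e with the members lay between -0.879 and -0.749 over 9 libraries and between -0.727 and -0.442 in hearts 7 and 8 alone. RPM are shares of one total in each library, so levels of different miRNAs are not independent. On the entries named for them alone, none of the 3 passed the limma F test between hearts (adjusted p = 0.651 for let-7a, 0.698 for let-7c and 0.754 for let-7e).

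**Figure D4:**
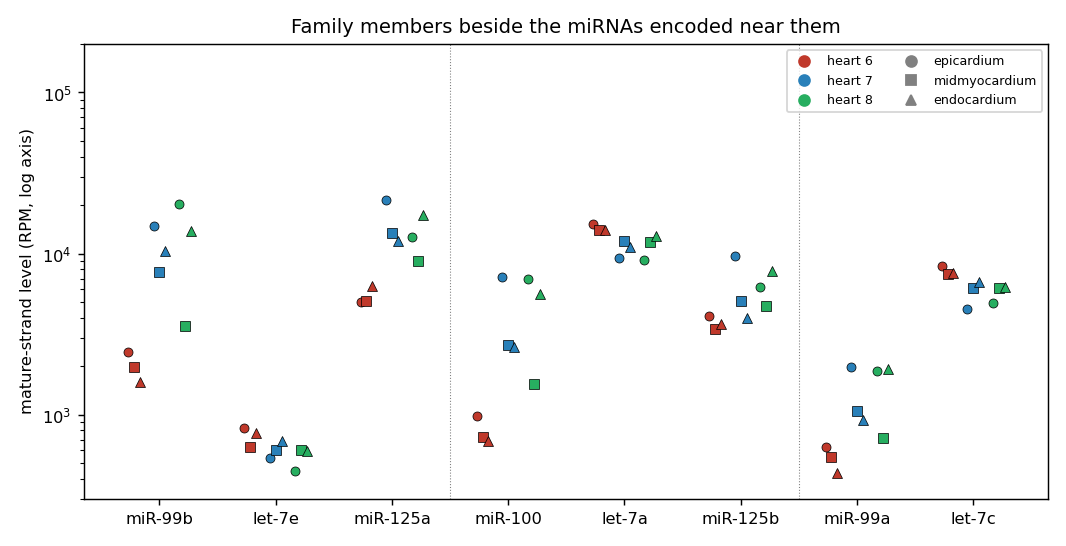
Mature-strand level (RPM, log axis) of the family members beside the let-7 and miR-125 miRNAs encoded near them, in each of the 9 libraries, coloured by heart and with a symbol for each layer. Dotted lines part the 3 clusters. miR-125b, which has a copy near Mir100 and one near Mir99a, is drawn once. miR-125a is lowest in heart 6 (4998 to 6315 RPM) like the members, whereas let-7a and let-7c are highest there.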

How the data were processed

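Small RNA libraries (TruSeq, RNA integrity number of at least 8) were sequenced, trimmed and aligned to miRBase v18 in CLC Genomics Workbench v4.0 by the authors, who deposited every annotated sequence in RPM on the annotated reads of its library, a table grouped on mature sequence as signal values, and counts of unannotated sequences of at least 10 reads. Up to 2 mismatches and 3 added or missing end bases were allowed. All 125689 values above 0 came out as whole reads (tolerance 0.01 reads), so counts were recovered. Features were entries split by strand, with at least 10 reads in a library. They were compared on log2(RPM + 1) with limma 3.58.1 (R 4.3.3), Benjamini-Hochberg adjusted over all features, with a layer term alone or, between hearts, an F test with layer as covariate. Alternatives used edgeR 4.0.16, DESeq2 1.42.0, Baggerley's test, other scalings, filters and pseudocounts (0.1 and 10), a heart block and each library left out. Single shares used exact permutations.

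The heart number pairs libraries, since each heart gave every layer. Deviations from the layer means correlated at 0.217 on average between libraries of the same heart (9 pairs) and at -0.102 between hearts (18 pairs). Within heart 6 the values were 0.614, 0.477 and 0.415. Within heart 7 and within heart 8 they ran from -0.207 to 0.256, and between these hearts from 0.071 to 0.435. Libraries of the same heart were thus more alike in heart 6 only. Replicates are separate animals. The named features were all family entries, the exact mature and 5 most abundant sequences of each member, the neighbouring let-7 and miR-125 miRNAs and the 3 most similar features. A fragment, a jointly filed sequence and some low single sequences were named after their values were seen. Members, lists and tests were chosen with earlier results of these data known. On simulated counts (547 features tested, drawn at the real means and depths), the F test between hearts recovered 41 of 50 features changed 4-fold and 13 of 50 changed 2-fold, and called 3 unchanged ones. The grouped table served as an alternative only.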

Additional observations from a re-analysis of the deposited data

Results flagged for a closer look

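A single sequence outside the annotated table carried the miR-99b mature sequence. Among 13317 deposited unannotated sequences, 1 shared a run of 15 or more nts with a family member, and it is shown with the bases past the mature 3′ end in capitals.

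unannotated, miR-99b with 3 further A: cacccgtagaaccgaccttgcgAAA

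It had 44 reads over the 9 libraries, with 3, 4 and 9 in epicardium of hearts 6, 7 and 8, 0, 1 and 5 in midmyocardium, and 3, 14 and 5 in endocardium. Scaled to the annotated total these were 3.19, 5.19 and 9.66 RPM in epicardium, 0, 1.33 and 4.75 in midmyocardium and 4.22, 9.80 and 6.58 in endocardium, so that heart 6 overlapped the other hearts. With no control library, it was set against the 3 reads that a count of 0 allows, which 5 libraries exceeded. Groups of 3 libraries are too small for the search for outlying samples.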

How the results depend on the processing

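No alternative called a family feature between layers. Each layer comparison had 0 calls, and the alternatives gave 0 except 1 by Baggerley's test (endocardium against epicardium), 1 by DESeq2 (midmyocardium against epicardium) and 0 to 1 with 1 library left out (midmyocardium against endocardium, 1 without endocardium of heart 7). The heart block gave 0 calls in each and changed no call, and hearts 7 and 8 alone, chosen after the data were seen, also gave 0. Between hearts the 0 calls of limma became 3 with TMM scaling, 16 with edgeR, 24 with DESeq2, 14 with a pseudocount of 10, 4 with no filter, 3 on the total of rat entries, 1 on the grouped table and 0 to 7 with a library or layer left out (7 without midmyocardium of heart 8, 2 without midmyocardium). Why the tests differ was not tested. Single sequences called between hearts numbered 34, 52 at a minimum of 10 RPM, and 0 to 40 with a library left out. The share of miR-99a reads longer at the 3′ end was 9.01%, and 5.84% with tied reads left out, and the share of miR-100* was 0.177%, and 0 over sequences of at least 10 reads, since none reached it.

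Directions between layers changed with single libraries in the fits without a heart block. Leaving out 1 library there also leaves the hearts unequal between the layers, so these ranges take in the difference between hearts. Within each heart, miR-99b and miR-100 were lower in endocardium than in epicardium. miR-99a was so in hearts 6 and 7 alone. With 1 library left out, the log2 difference of endocardium from epicardium ran from -1.07 to 0.0076 for miR-99a, -1.50 to 0.41 for miR-99b, -1.71 to 0.071 for miR-100, -0.078 to 0.18 for miR-99a*, -0.13 to 0.27 for miR-99b*, -1.09 to 0.14 for the miR-99b precursor and -0.65 to 0.0074 for the miR-100 precursor. For the 3 mature strands the lowest value came without epicardium and the highest without endocardium of heart 6. Midmyocardium minus epicardium ran from -0.13 to 0.41 for miR-99b*. Midmyocardium minus endocardium ran from -0.84 to 0.24 for miR-99a, -1.41 to 0.11 for miR-100, -0.18 to 0.36 for miR-99b*, -0.37 to 0.25 for the miR-99a precursor and -0.61 to 0.045 for the miR-100 precursor. miR-99b* also turned negative in midmyocardium against endocardium with edgeR (-0.062) and, in hearts 7 and 8 alone, in endocardium against epicardium (-0.021), midmyocardium against epicardium (-0.022) and midmyocardium against endocardium (-0.00083). Depth limits what can be said of the * strands, with 26 to 98 reads of miR-99a*, 10 to 33 of miR-99b* and 0 to 5 of miR-100* per library.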

Other observations

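Entries of other species that carry the same names held 28 sequences and 51 reads in 11 species, 1 to 15 reads per library, and entered no comparison.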
